A study of Mus musculus with 8 samples.

Results

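Hypoxia-inducible factor (HIF) target genes outside the glycolytic pathway were followed in islet RNA from NOD mice. The set held 10 genes known as HIF targets: Bnip3, Bnip3l, Fam162a, P4ha1, P4ha2, Hilpda, Slc2a1, Pfkfb3, Egln3 and Vegfa. All 10 were among the 13725 genes with deposited values, and all 10 were among the 12231 genes tested, those with a mean log2 CPM (counts scaled to library size, as deposited) above 0. The set was chosen by the group differences in log2 CPM between PAHSA and vehicle in these same libraries, as well as by known role, so the differences between the groups below describe the genes and are not tests of them.

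The libraries came from pancreatic islets of female mice of genotype NOD, aged 10 weeks, a strain that develops autoimmune diabetes. The mice had received PAHSA (4 libraries, replicates 1, 2, 3 and 4) or vehicle (4 libraries, replicates 1, 3, 4 and 5). PAHSAs are lipids in which palmitic acid is esterified to hydroxy stearic acid; the sample labels spell the treatment PASHA. A library may hold the islets of 1 mouse or a pool from 2 mice, since the labels give both, so the spread behind each p-value is that between libraries. The labels state neither an oxygen level nor a low oxygen treatment.

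HIF is a pair of proteins, an oxygen-sensitive alpha subunit (Hif1a or Epas1) and a stable partner (Arnt). With oxygen, prolyl hydroxylases of the Egln family mark the alpha subunit, Vhl binds the marked form, and the subunit is degraded. When oxygen is low the pair accumulates and binds DNA at hypoxia response elements, whose core reads ACGTG or GCGTG. Beta cells depend on mitochondrial oxidation of glucose to release insulin, and islets removed from their capillaries have to take up oxygen by diffusion.

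The effective library sizes recovered from the lowest values ran from 35268422 to 45241771 counts. The beta cell markers summed to 146183 to 179917 CPM in PAHSA libraries and 141175 to 183911 CPM in vehicle libraries. Ins2 and Gcg, an insulin gene and the glucagon gene, averaged 16.44 and 16.09 log2 CPM over all libraries, so the islet label held. The mean log2 CPM of the beta cell markers was 9.09 to 9.22 in PAHSA libraries and 8.89 to 9.05 in vehicle libraries. Higher in PAHSA libraries were 13 of 18 beta cell and 10 of 12 alpha cell markers, and 6001 of 12231 tested genes. Digestive enzyme genes of acinar cells, the exocrine cells that surround islets, varied widely between libraries. The 31 tested acinar markers summed to 5205, 22221, 13453 and 618 CPM in PAHSA replicates 1 to 4, against 14726, 14986, 58564 and 36740 CPM in vehicle replicates 1, 3, 4 and 5. The acinar share was thus lowest in PAHSA replicate 4 and highest in vehicle replicate 4. In such bulk RNA, fewer cells of a type and less RNA per cell cannot be told apart.

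The promoter sequences of the genes are shown first because HIF reads the DNA core given above. RefSeq start sites on GRCm38.p6 gave 12 entries for 9 of the 10 genes; Bnip3l had none. In the 250 bases before the start, with both strands searched, ACGTG stood in 10 of the 12 entries (83.3%), against 21.8% of 12001 entries of the genes tested. By gene this was 9 of 9, against 25.6% of 9333 tested genes. Vegfa is counted through an entry inside the gene, and a short stretch of bases soon after that start is in no GENCODE transcript of the gene. Over entries whose stretch is in a GENCODE transcript, 8 of 9 genes hold the core. Such a match does not show that the start itself is annotated in GENCODE. The second core, GCGTG, was found in 8 of 9 genes, and it was common elsewhere too, in 51.0% of tested genes. These matches describe the letters of the windows, and the genes were chosen as known targets. Bnip3 and the first Pfkfb3 start hold the palindrome CACGTG, which counts as a pair of overlapping ACGTG matches and is also the E-box of other factors.

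The following 250-base windows end at the base before the start and are written 5′ to 3′ on the gene's strand. Capitals mark the ACGTG core on either strand (CACGT where it lies on the other strand, CACGTG where both overlap). Bnip3, P4ha1 and Egln3 stand for a mitochondrial, a matrix and an oxygen-sensing target. Vegfa is shown at the start that lies at the 5′ boundary of the annotated gene, whose window holds no such core.
Bnip3, chr7:138909507-138909756, minus strand: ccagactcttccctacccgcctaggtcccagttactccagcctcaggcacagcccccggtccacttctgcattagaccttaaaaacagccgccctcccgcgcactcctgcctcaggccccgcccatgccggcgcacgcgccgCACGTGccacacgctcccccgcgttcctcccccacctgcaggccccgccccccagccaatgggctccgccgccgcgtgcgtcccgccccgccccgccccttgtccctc
P4ha1, chr10:59323046-59323295, plus strand: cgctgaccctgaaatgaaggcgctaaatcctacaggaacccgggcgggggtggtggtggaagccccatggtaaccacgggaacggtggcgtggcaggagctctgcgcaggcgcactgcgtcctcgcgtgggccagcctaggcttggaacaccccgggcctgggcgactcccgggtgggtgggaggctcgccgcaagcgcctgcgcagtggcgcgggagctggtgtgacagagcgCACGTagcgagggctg
Egln3, chr12:54203875-54204124, minus strand: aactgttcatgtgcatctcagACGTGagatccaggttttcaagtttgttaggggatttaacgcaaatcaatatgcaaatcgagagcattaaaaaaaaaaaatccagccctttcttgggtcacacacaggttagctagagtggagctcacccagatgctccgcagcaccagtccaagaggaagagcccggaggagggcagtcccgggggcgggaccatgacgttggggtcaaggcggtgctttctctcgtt
Vegfa, chr17:46032378-46032627, minus strand: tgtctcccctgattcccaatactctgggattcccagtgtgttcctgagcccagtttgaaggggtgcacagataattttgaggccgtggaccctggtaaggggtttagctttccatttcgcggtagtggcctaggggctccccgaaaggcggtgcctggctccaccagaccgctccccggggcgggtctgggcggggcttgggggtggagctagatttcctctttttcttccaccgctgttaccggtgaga
The core lay close to the start in P4ha1 and much farther away in Egln3. The other Vegfa entry, inside the gene, does hold ACGTG, and of the 2 Hilpda entries only the second does.

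**Figure D1:**
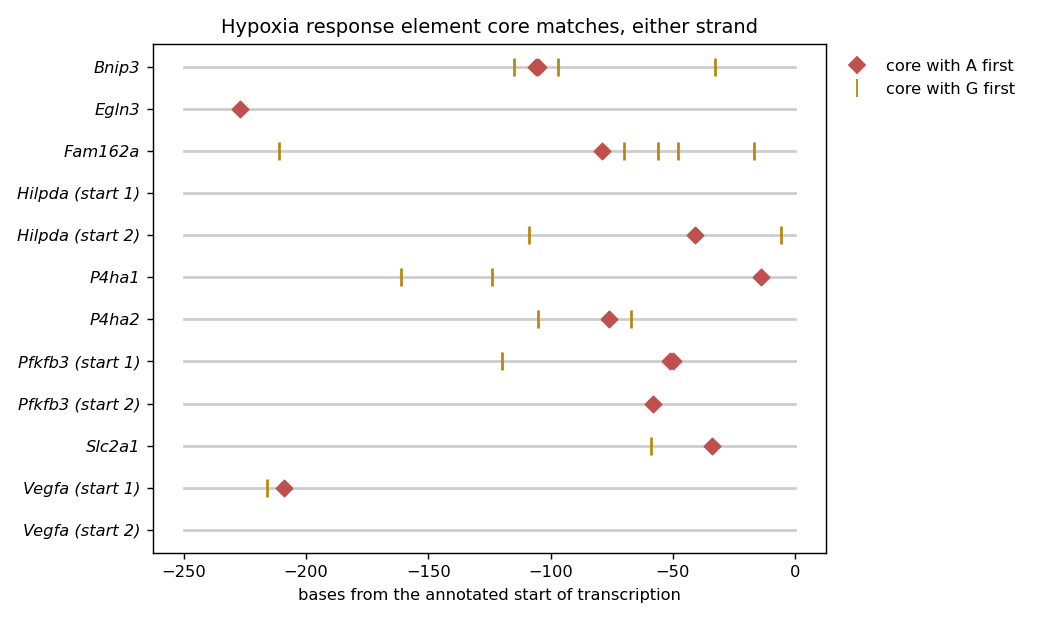
Positions of ACGTG (diamonds, core with A first) and GCGTG (ticks, core with G first) on either strand in the 250 bases before each RefSeq start of the 9 genes with an entry; the horizontal axis is the distance from the start in bases and each row is 1 start. ACGTG is present in 10 of 12 rows, and absent from the first Hilpda start and the second Vegfa start.

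Across the 10 genes the mean was lower in PAHSA libraries for all 10, where 50.9% of all tested genes had a lower mean. The median difference of the set was -0.62 on the log2 CPM scale, beside -0.0056 for all genes. In 5 genes, Bnip3, Bnip3l, Fam162a, P4ha2 and Hilpda, every PAHSA library lay below every vehicle library, which held for 238 of 12231 genes (1.95%). In 4 others, P4ha1, Slc2a1, Pfkfb3 and Egln3, 3 of the 4 PAHSA libraries lay below the lowest vehicle library. Vegfa was the exception, with groups that overlapped fully. With the limma test and Benjamini-Hochberg adjustment, 0 of 12231 genes passed an adjusted p of 0.05 (0%), and 894 had an unadjusted p under 0.05. The adjusted p of the 10 genes ran from 0.671 to 0.966.

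**Figure D2:**
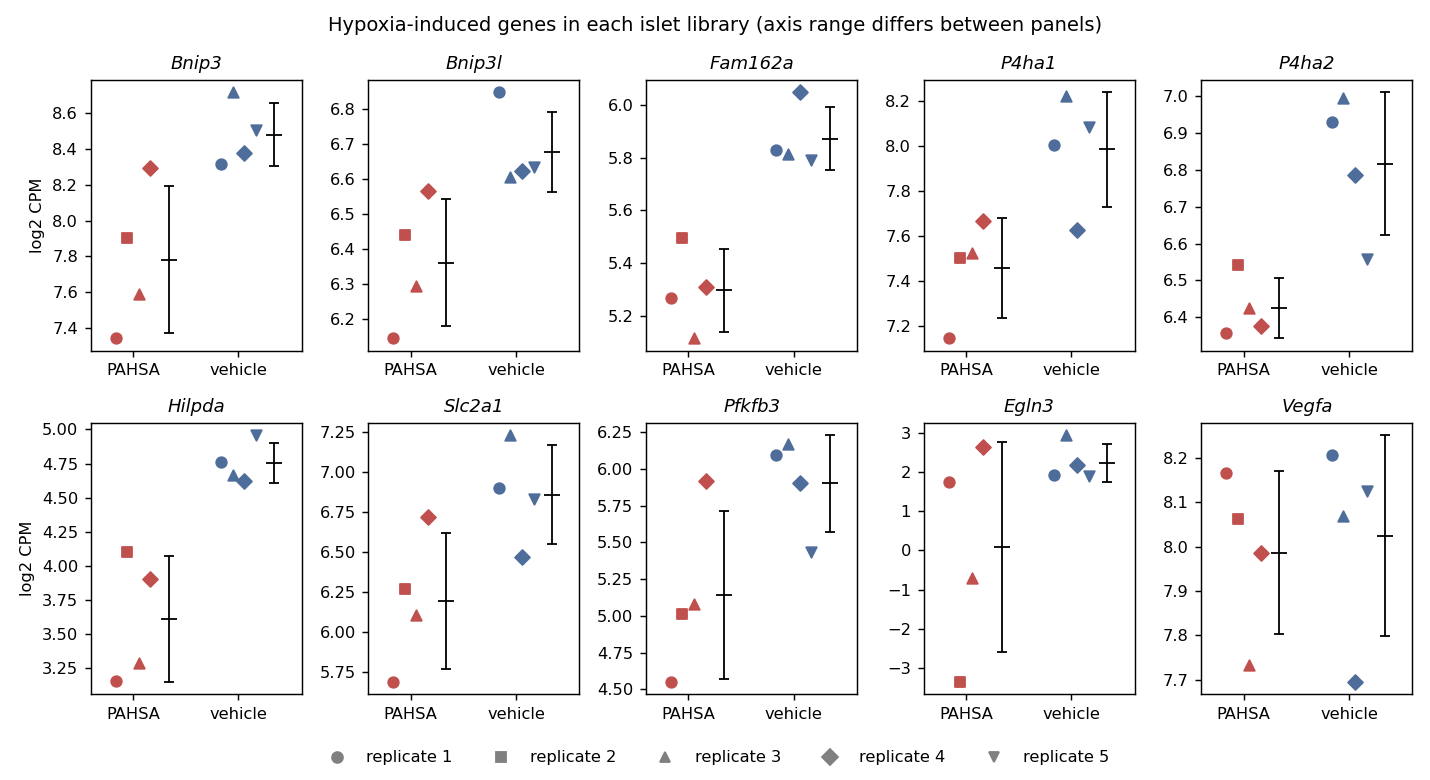
Deposited log2 CPM of each of the 10 genes in every library; points are libraries, PAHSA left of vehicle, and the bar beside each group is its mean ± SD (n = 4). The vertical range differs between panels. The groups are separate in Bnip3, Bnip3l, Fam162a, P4ha2 and Hilpda, and PAHSA replicate 2 stands at -3.35 for Egln3.

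Bnip3 and its relative Bnip3l encode receptors on the outer mitochondrial membrane that mark mitochondria for removal by autophagy. Bnip3 (ENSMUSG00000078566, chromosome 7 from 138890836 to 138909519 on GRCm38) measured 163, 239, 193 and 314 CPM in PAHSA replicates 1 to 4, against 319, 420, 332 and 363 CPM in vehicle replicates 1, 3, 4 and 5. PAHSA replicate 4 came within 0.022 log2 units of the lowest vehicle library, and the other PAHSA libraries lay well below. The group difference was -0.70 (SE 0.18) on the log2 scale, 0.618 times the vehicle level. Bnip3 overlaps an antisense gene and a processed pseudogene on the opposite strand, and the kit does not mark strand, so reads of these cannot be told apart.

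Bnip3l (ENSMUSG00000022051, chromosome 14 from 66985239 to 67008877) was steadier. It measured 70.8, 86.9, 78.5 and 94.6 CPM in PAHSA libraries, against 115, 97.3, 98.4 and 99.3 CPM in vehicle libraries. Vehicle replicate 1 stood above the other vehicle libraries, and the groups were separated by 0.04 log2 units. The difference was -0.32 (SE 0.13), or 0.804 times.

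Fam162a (ENSMUSG00000003955, chromosome 16 from 36043761 to 36071594) encodes a mitochondrial protein linked to hypoxic cell death. Its values were 38.5, 45.1, 34.6 and 39.6 CPM in PAHSA libraries, against 56.9, 56.3, 66.2 and 55.4 CPM in vehicle libraries. The groups were separated by 0.295 log2 units, and vehicle replicate 4 stood above the other vehicle libraries. The difference was -0.58 (SE 0.14), 0.671 times the vehicle level, and Fam162a overlaps Wdr5b on the opposite strand.

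P4ha1 and P4ha2 encode catalytic alpha subunits of prolyl 4-hydroxylase, the enzyme that hydroxylates proline in collagen so that its triple helix is stable. P4ha1 (ENSMUSG00000019916, chromosome 10 from 59323296 to 59373304) measured 142, 181, 184 and 204 CPM in PAHSA libraries, against 257, 299, 198 and 272 CPM in vehicle libraries. Vehicle replicate 4 lay just below PAHSA replicate 4, and the groups otherwise stood apart. Its difference was -0.52 (SE 0.15).

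P4ha2 (ENSMUSG00000018906, chromosome 11 from 54100095 to 54131665) had values of 82.1, 93.2, 85.9 and 83.1 CPM in PAHSA libraries, against 122, 128, 110 and 94.2 CPM in vehicle libraries. The PAHSA libraries were nearly level, with a SD of 0.082 log2 units. Vehicle replicate 5 lay just above them. The difference was -0.39 (SE 0.12).

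Hilpda encodes a lipid droplet protein that inhibits adipose triglyceride lipase. Hilpda (ENSMUSG00000043421, chromosome 6 from 29272488 to 29275446) measured 8.92, 17.2, 9.78 and 15.0 CPM in PAHSA libraries, against 27.1, 25.4, 24.7 and 31.1 CPM in vehicle libraries. It had the widest gap between groups of the 10 genes, 0.525 log2 units. The difference was -1.14 (SE 0.26), 0.454 times the vehicle level. PAHSA replicates 1 and 3 were the low pair, while vehicle libraries lay close together.

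Slc2a1 encodes the glucose transporter GLUT1, and Pfkfb3 an enzyme that makes fructose 2,6-bisphosphate, an activator of glycolysis; in mouse beta cells the main glucose transporter is another gene, Slc2a2. Slc2a1 (ENSMUSG00000028645, chromosome 4 from 119108711 to 119137983) measured 51.7, 77.2, 68.9 and 105 CPM in PAHSA libraries, against 120, 150.0, 88.8 and 114 CPM in vehicle libraries. PAHSA replicate 4 lay above vehicle replicate 4, so the groups overlapped. The difference was -0.66 (SE 0.22).

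Pfkfb3 (ENSMUSG00000026773, chromosome 2 from 11471433 to 11554077) measured 23.5, 32.2, 33.8 and 60.5 CPM in PAHSA libraries, against 68.2, 71.9, 59.9 and 43.3 CPM in vehicle libraries. PAHSA replicate 4 was at the level of vehicle replicate 4, and vehicle replicate 5 lay below both. The difference was -0.76 (SE 0.27). Slc2a1 and Pfkfb3 each overlap antisense genes, whose reads cannot be told apart from theirs.

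Egln3 (ENSMUSG00000035105, chromosome 12 from 54178981 to 54203860) encodes a HIF prolyl hydroxylase that is itself a HIF target. It was the weakest of the 10 genes and the most variable. It had 3.37, 0.0984, 0.617 and 6.23 CPM in PAHSA libraries, against 3.79, 7.66, 4.51 and 3.70 CPM in vehicle libraries. PAHSA replicate 2 held an estimated 3 counts, and PAHSA replicate 4 was above 3 of the 4 vehicle libraries. The within-group SD was 1.93 log2 units, at percentile 96.2 of all tested genes. The difference, -2.14 (SE 1.13), became -1.06 on log2(CPM + 1) and -0.998 without PAHSA replicate 2.

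Vegfa (ENSMUSG00000023951, chromosome 17 from 46016993 to 46032369) encodes the growth factor by which islet endocrine cells maintain their capillaries. It had 287, 267, 213 and 253 CPM in PAHSA libraries, against 296, 269, 207 and 279 CPM in vehicle libraries. Both groups covered much the same range. The difference was -0.04 (SE 0.13), with a 95% confidence interval of -0.33 to 0.26, and it turned to 0.03 under quantile normalization.

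The libraries did not take the same place in every gene. PAHSA replicate 1 was the lowest PAHSA library in 7 of the 10 genes and PAHSA replicate 4 the highest in 6. Vehicle replicate 3 was the highest vehicle library in 6. Averaged over the 9 genes other than Egln3, the log2 CPM was 5.98, 6.37, 6.13 and 6.53 in PAHSA replicates 1 to 4, against 6.88, 6.94, 6.68 and 6.77 in vehicle replicates 1, 3, 4 and 5. The within-group SD lay below the all-gene median in 7 of the 10 genes.

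Acinar and stellate cell content was then set against the genes within groups, which the choice of the set did not use. The limma fit held the group and the library mean of a marker list, and the slope is the log2 change of a gene for each log2 unit of that mean. Against the acinar mean, 61 of 12231 genes (0.499%) had an adjusted p under 0.05, and none of the 10 did. Of the 31 acinar markers whose mean was the covariate, 30 were among the 61, so their slopes were largely built in. Over all tested genes 6422 of 12231 slopes were negative. Of the 10 slopes 8 were negative, and the smallest adjusted p was 0.362, for Egln3, with a slope of -0.78 (SE 0.23). These signs depended on single libraries: with PAHSA replicate 4 left out 6 slopes were negative, with Bnip3 at 0.08, Bnip3l at 0.03 and Hilpda at 0.19, and with PAHSA replicate 2 left out all 10 were. The slope of Egln3 itself was -0.49 without PAHSA replicate 2 and -1.19 without PAHSA replicate 4. Over all libraries, the slope of Fam162a was 0.02 (SE 0.04) and that of Hilpda -0.02 (SE 0.08), both within their error of 0. At an unadjusted p under 0.05 there were 2, Egln3 and Pfkfb3, where 8.23% of all genes stood. There were 0 without PAHSA replicate 4 (6.43% of all genes), when the slope of Pfkfb3 was -0.01 (SE 0.14), against -0.17 (SE 0.06) over all libraries. Without PAHSA replicate 1 there were 4 (8.78% of all genes), and without PAHSA replicate 2 also 4 (8.83%).

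All 31 acinar markers had lower means in PAHSA libraries, where 50.9% of all tested genes did. Their median difference was -2.38, so acinar RNA moved with the group. When the acinar mean was a covariate, the median difference of the set was -0.78, against -0.62 without it, and 8 of the 10 differences were farther from 0. The direction of that shift follows from the 8 negative slopes and the lower acinar mean in PAHSA libraries. Pfkfb3 was at -1.17 (SE 0.27) and Egln3 at -4.04 (SE 0.99). Fam162a and P4ha2 were slightly nearer to 0, at -0.54 (SE 0.18) and -0.39 (SE 0.16). PAHSA replicate 4 weighs heavily in this fit, with an acinar mean of 2.40 where the other PAHSA libraries had 6.31 to 8.36. Without it, in a fit chosen after seeing the data, the median was -0.70 with the acinar mean and -0.71 with group alone. Lower at an unadjusted p under 0.05 were 9 of the 10 genes with the acinar mean (4.68% of all genes) and 8 with it and without that library (4.4%), beside 8 with group alone (4.29%). The part of acinar RNA in the differences was not tested beyond these fits.

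The stellate list holds markers of stellate cells, fibroblasts and pericytes, cells known for making collagen. Its 18 tested genes summed to 238 to 352 CPM in PAHSA libraries and 283 to 617 CPM in vehicle libraries. Of these 18 genes 12 had lower means in PAHSA libraries, where 50.9% of all tested genes did. Dcn, the matrix protein decorin, had 0.041, 11.1, 0.0378 and 0.94 CPM in PAHSA libraries, against 18.6, 13.3, 6.22 and 4.79 CPM in vehicle libraries, so PAHSA replicates 1 and 3 held an estimated 1 count each. Col1a1, a collagen chain, differed by -0.94 (SE 0.54).

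Against the stellate mean, 6279 of 12231 tested genes had a positive slope, and all 10 genes of the set did. The 10 slopes ran from 0.00 for Egln3 (SE 0.90) to 0.48 for Pfkfb3 (SE 0.16), with Slc2a1 at 0.37 (SE 0.13). P4ha1, with a slope of 0.19 (SE 0.10), and P4ha2, with 0.12 (SE 0.09), lay within the range of the other slopes. Leaving out single libraries turned Fam162a and Egln3 negative, Egln3 as far as -1.03 without PAHSA replicate 4. It moved Pfkfb3 to 0.31 without that library, Slc2a1 to 0.58 without vehicle replicate 1 and P4ha2 to 0.06 without vehicle replicate 5. With adjustment, 0 of 12231 genes passed (0%), and the smallest adjusted p of the 10 was 0.942. At an unadjusted p under 0.05 there were 2, Pfkfb3 and Slc2a1, and 553 of all genes (4.52%). Without PAHSA replicate 1 (3.47% of all genes) or 4 (3.43%) there were 0, and without vehicle replicate 1 there were 4 (5.98%). With the stellate mean as a covariate all 10 differences were nearer to 0 and the median was -0.36. The direction of that shift follows from the positive slopes and the lower stellate mean in PAHSA libraries. Lower at an unadjusted p under 0.05 were then 4 of the 10 (2.99% of all genes). Bnip3l became -0.17 (SE 0.13), Slc2a1 -0.35 (SE 0.20) and Pfkfb3 -0.36 (SE 0.24), and Vegfa crossed to 0.04 (SE 0.16). Hilpda stayed at -0.95 (SE 0.30) and Fam162a at -0.57 (SE 0.18).

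**Figure D3:**
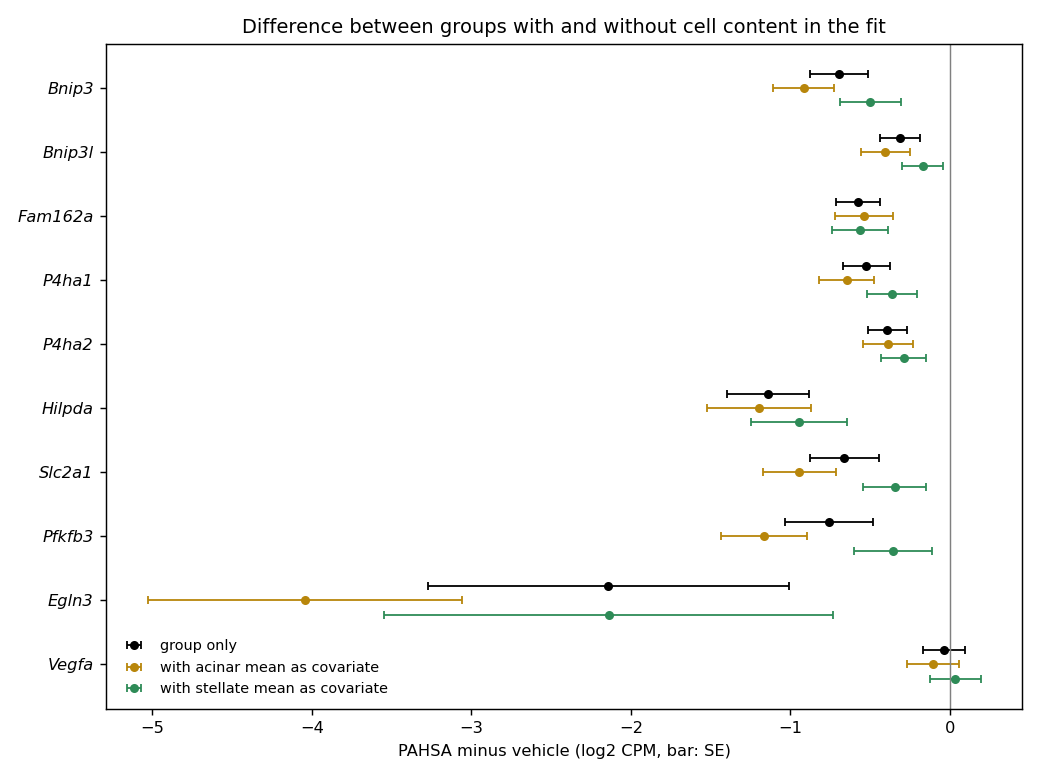
Difference in log2 CPM (PAHSA minus vehicle) for each gene, from the fit with group only, with the acinar mean and with the stellate mean as covariate; points are estimates and bars their SE. The median of the 10 estimates is -0.62, -0.78 and -0.36 in that order.

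Markers of the other cell types were measured as well. The 5 tested endothelial genes summed to 36.9 to 52.0 CPM in PAHSA libraries and 42.1 to 81.0 CPM in vehicle libraries. All 5 had lower means in PAHSA libraries (50.9% of all tested genes), with differences from -2.30 to -0.16 and a median of -0.41. Pecam1, the endothelial adhesion molecule, differed least, by -0.16 (SE 0.26). The 6 macrophage genes summed to 187 to 427 CPM in PAHSA libraries and 270 to 653 CPM in vehicle libraries, and the duct genes to 3941 to 4942 CPM in PAHSA libraries and 4738 to 6660 CPM in vehicle libraries. Of the 18 lymphocyte markers 1 was tested, so the immune infiltrate of this strain was hardly covered. The part of these cells in the differences was not tested.

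**Figure D4:**
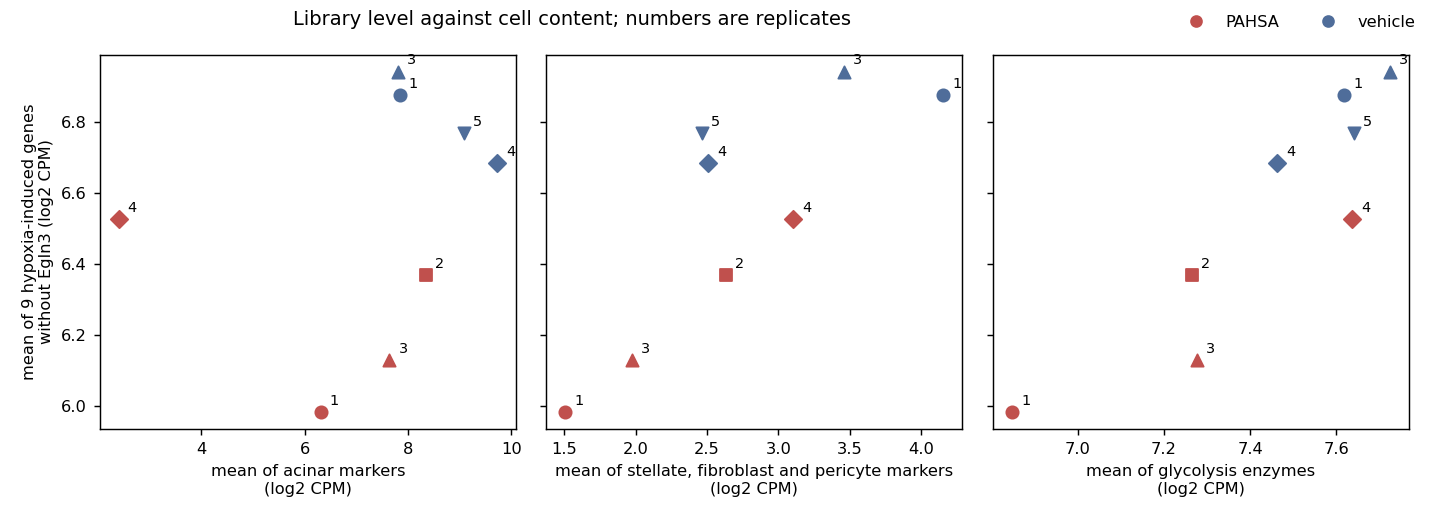
Mean log2 CPM of the 9 genes other than Egln3 (vertical axes) against the mean log2 CPM of the acinar, stellate and glycolysis lists (horizontal axes, 1 panel each); each point is a library, numbered by replicate, PAHSA in red and vehicle in blue. The PAHSA libraries lie at 5.98 to 6.53 and the vehicle libraries at 6.68 to 6.94. Among PAHSA libraries the 9-gene mean and the stellate mean have the same order (replicates 1, 3, 2 and 4), which the macrophage list also has. Among vehicle libraries the orders differ (replicates 4, 5, 1 and 3 against 5, 4, 3 and 1). PAHSA replicate 4 has the lowest acinar mean, 2.40.

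The other genes of the pathway were taken from lists, which were chosen with earlier results of these data known. Over all tested genes, 50.9% had a lower mean in PAHSA libraries. Of 17 tested genes for oxygen sensing and HIF subunits, 14 had lower and 3 higher means in PAHSA libraries, with a median of -0.15, and none passed the adjusted test. Hif1a, the alpha subunit, differed by -0.20 (SE 0.18), its partner Arnt by -0.40 (SE 0.29) and Arnt2, a related partner, by -0.32 (SE 0.22). Egln1, the main HIF prolyl hydroxylase, differed by -0.22 (SE 0.18) and Vhl by -0.22 (SE 0.30). Ep300, a HIF coactivator, differed by -0.29 (SE 0.17), and Cited2, which competes for that coactivator, by 0.34 (SE 0.22).

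Epas1, the second alpha subunit, was the only gene of the 17 with an unadjusted p under 0.05, a level that 894 of all genes (7.31%) reached. Its log2 CPM was 1.17, 2.40, 2.69 and -3.99 in PAHSA libraries, against 2.93, 4.04, 3.49 and 3.06 in vehicle libraries. PAHSA replicate 4, the library with the least acinar RNA, was the low one, under the level of 3 counts in that library (-3.51). The difference was -2.81 (SE 1.24), but -1.29 (SE 0.47) without PAHSA replicate 4 and -0.34 (SE 0.79) with the acinar mean as covariate. With that covariate and without PAHSA replicate 4 it was -0.99 (SE 0.58), so the value of -0.34 depended on that library. The acinar slope of Epas1 was 1.01 with a limma adjusted p of 0.0511. That slope was 0.25 without PAHSA replicate 4, and its adjusted p ran from 0.0297, without vehicle replicate 3, to 0.885 when a library was left out.

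Among 38 tested HIF targets outside the set and outside glycolysis, 31 had lower and 7 higher means in PAHSA libraries, with a median of -0.30. Of all tested genes 50.9% had a lower mean. In 7 of the 38 every PAHSA library lay below every vehicle library, which held for 1.95% of all tested genes. At an unadjusted p under 0.05, 9 were lower and 0 higher, beside 4.29% and 3.02% of all genes, and none passed the adjusted test. Gys1, glycogen synthase, differed by -0.99 (SE 0.23), Trf, transferrin, by -1.83 (SE 0.48) and Mif, a cytokine, by -0.51 (SE 0.14). Bhlhe40, a repressor of transcription, differed by -0.66 (SE 0.21) and Narf by -0.95 (SE 0.31).

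Of 17 glycolytic enzymes, 15 had lower and 2 higher means in PAHSA libraries (lower in 50.9% of all tested genes). Their median was -0.34, and 0 passed the adjusted test. Eno1 differed by -0.56 (SE 0.16), Pgk1 by -0.69 (SE 0.20), Ldha by -1.45 (SE 0.45), Tpi1 by -0.43 (SE 0.13) and Gapdh by -0.42 (SE 0.14).

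**Figure D5:**
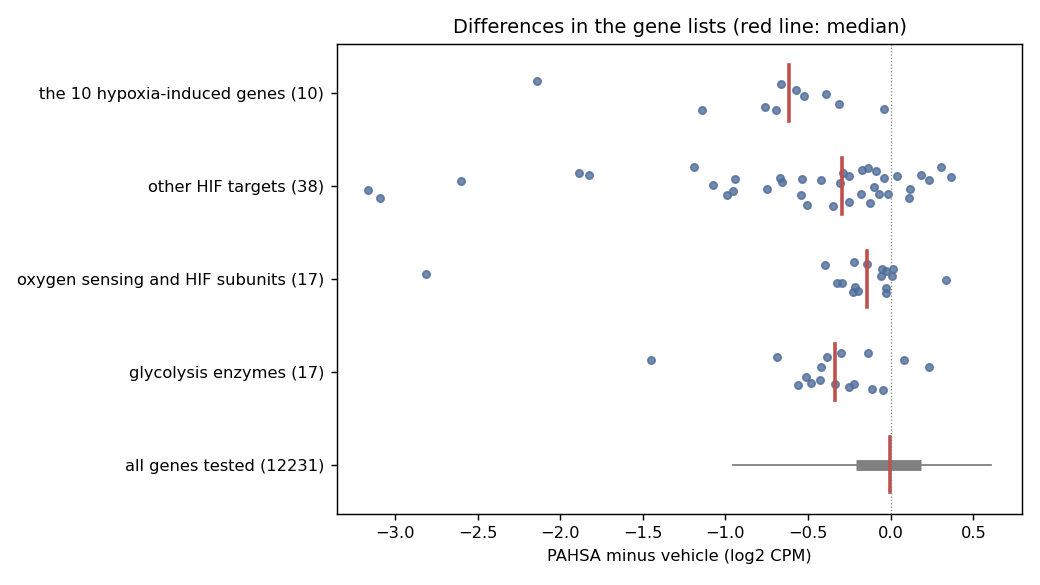
Difference in log2 CPM (PAHSA minus vehicle) for every tested gene of the 10 genes, the other HIF targets, the oxygen sensing list and the glycolytic enzymes, with the median of each list as a red line. For all genes the thin bar gives percentiles 5 to 95 and the thick bar 25 to 75; the list medians are -0.62, -0.30, -0.15 and -0.34, and that of all genes is -0.0056.

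Within groups the genes were also set against the mean of the 17 glycolytic enzymes, a fit added after the data had been seen. Over all tested genes 6100 of 12231 slopes were positive, and of the 10 slopes 8 were. They reached 1.44 (SE 0.29) for Slc2a1, 1.18 (SE 0.25) for Bnip3, 1.58 (SE 0.46) for Pfkfb3 and 0.84 (SE 0.25) for P4ha1, the 4 with an unadjusted p under 0.05, where 649 of all genes (5.31%) had a positive slope at that level. With adjustment 0 of 12231 genes passed (0%), and the smallest adjusted p of the 10 was 0.320. Without PAHSA replicate 4 the slope of Pfkfb3 was 1.01 (SE 0.68) and no longer at that level, and without PAHSA replicate 1 that of P4ha1 was not. Egln3 had a slope of 0.91 (SE 2.82), which ran from -6.28 without PAHSA replicate 4 to 9.81 without PAHSA replicate 1. The slopes of Fam162a and P4ha2 were -0.06 (SE 0.35) and 0.08 (SE 0.30), within their error of 0.

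Genes with the profile most like that of the set within groups were ranked by mean absolute distance over the 8 libraries. Of 7632 candidates Hdgfl2 was nearest (0.0649 log2 units), then Gtf3a (0.0702), Matn2, Shmt2, Lrch3, AW209491, Hsd3b7 and Zfp282. Egln3 set much of that profile. With Egln3 left out, the nearest of 9507 candidates were Pex11g, Vps37d, Ssr3, Sec23b, Pdia6, Dnpep, Pigl and Cd99l2, with no gene in both lists.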

How the data were processed

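Values are log2 CPM as deposited by the authors, for 8 libraries; kallisto and limma were used, per the submitters' processing notes, with no version stated. RNA was extracted with RNeasy columns and libraries were made with Nextera XT, per the labels' protocols. The authors' genome build: not given in the sources used here. Reads that match several transcripts are divided by kallisto's model, so genes with near copies are less certain. Steps between the lowest values gave the effective library sizes with a prior count of 0.5. Symbols and positions came from GENCODE M21 (GRCm38); 56 IDs had no symbol. limma 3.58.1 in R 4.3.3 (lmFit, eBayes with trend, two-sided, Benjamini-Hochberg over all genes tested) was fitted to 12231 genes with a mean log2 CPM above 0, leaving out 1494, and tested on simulated data. Fits held group alone, or group and the mean of a marker list. Named genes were the 10 genes, the 5 smallest p of each pathway list, HIF regulators, defining markers and 8 genes nearest in profile. The genes and lists were chosen with earlier results of these data known. Alternatives covered log scale, filters, scaling, eBayes without trend, each library left out, a replicate block and covariates.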

Additional observations from a re-analysis of the deposited data

Results flagged for a closer look

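In 4 of 86 groups of 4 libraries, 1 library stood far from the other 3 by Dixon's criterion, which chance gives in about 1 group in 20. Bnip3l stood at 6.847 log2 CPM in vehicle replicate 1, where the other vehicle libraries were at 6.604 to 6.634. Fam162a stood at 6.05 in vehicle replicate 4, where the others were at 5.791 to 5.83. Col1a1, a collagen chain of the stellate list, stood at 2.523 in PAHSA replicate 1, with the other PAHSA libraries at 3.718 to 3.868. Ins2, an insulin gene, stood at 16.624 in vehicle replicate 4, the library with the most acinar RNA, with the others at 16.222 to 16.273. The cause of each was not tested.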

How the results depend on the processing

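For 9 of the 10 genes, all but Vegfa, the mean was lower in PAHSA libraries under all 19 alternatives (for Egln3 without the filter at a mean log2 CPM above 2, which leaves it out); Vegfa was above 0 in 4 of them. Of the 10 genes, 8 were lower at an unadjusted p under 0.05 with group alone (4.29% of all genes), 9 with the acinar covariate (4.68%), 4 with the stellate covariate (2.99%), and 7 to 9 when a library was left out. The set was chosen by this contrast, so these counts describe it. No gene of the whole table passed the adjusted test between groups in any of these fits. On the acinar mean the 61 genes passing, 30 of them acinar markers, became 41 to 74 when a library was left out. None of the 10 passed in any alternative (smallest limma adjusted p 0.220), and on the stellate mean none passed (smallest 0.592). Of 149 slopes over the alternatives, 14 changed sign on the acinar and 9 on the stellate mean. On the glycolysis mean, 0 genes passed in the main fit. Without the group term 20 did, Bnip3 and Slc2a1 among them (limma adjusted p 0.0291 and 0.0280). That fit takes in the group difference by which the set was chosen, so it is no test of these genes. With mean log2 CPM above 2, 2 genes passed, and 0 to 39 when a library was left out, 39 being without PAHSA replicate 1. The cause was not tested.

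Replicate numbers are not stated to pair the libraries. Deviations from the group means correlated at -0.0217 to -0.0169 in 3 pairs with the same number, and at -0.0539 to 0.0467 in other pairs. With 3 such pairs, these values cannot settle whether libraries were paired. With the replicate block on the libraries numbered 1, 3 and 4, 10 of the 10 genes were lower, 7 at an unadjusted p under 0.05 (457 of all genes, 3.74%), and 0 of all genes passed the adjusted test (747 at an unadjusted p under 0.05 in either direction).

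With 4 libraries a group, the median SE of a difference was 0.25 log2 units, and differences far larger than that did not pass the adjusted test. Hilpda, at -1.14 (SE 0.26), had a limma adjusted p of 0.671.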

Other observations

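The 5 HIF targets outside the set that were measured but left out by the filter on mean level did not share a direction. Car9, carbonic anhydrase 9, had 0.041, 0.0141, 0.0126 and 2.00 CPM in PAHSA libraries, against 1.74, 2.31, 6.53 and 3.26 CPM in vehicle libraries. Nos2, the inducible nitric oxide synthase, had 0.0956, 0.0141, 0.0126 and 11.4 CPM in PAHSA libraries, against 12.6, 5.66, 12.3 and 4.39 CPM in vehicle libraries. For both, PAHSA replicate 4 lay within the vehicle range and the other PAHSA libraries were at or under an estimated 3 counts.

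Angptl4, a secreted inhibitor of lipoprotein lipase, had 0.0137, 4.17, 2.66 and 7.48 CPM in PAHSA libraries, against 3.10, 0.0122, 1.34 and 1.05 CPM in vehicle libraries, with PAHSA replicates 2 and 4 the highest. Angpt2, a ligand of the endothelial receptor Tek, had 0.0137, 0.83, 0.0126 and 9.46 CPM in PAHSA libraries, against 3.38, 3.11, 0.0967 and 2.21 CPM in vehicle libraries, with PAHSA replicate 4 the highest of all. Lox, the enzyme that crosslinks collagen, had 0.0137, 2.91, 3.26 and 0.0125 CPM in PAHSA libraries, against 9.12, 6.76, 2.99 and 1.96 CPM in vehicle libraries, and the groups overlapped. Values from 0.0122 to 0.0137 CPM in these genes are the lowest value of their library, which stands for no counts.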
